A study of Bos indicus x Bos taurus with 17 samples.

Results

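The genes of cholesterol synthesis and its feedback control were followed in the liver and skeletal muscle of bovine fetuses. The group holds 8 genes, picked by their symbols from the 21048 gene rows of the count tables: the enzyme genes HMGCS1, MVD, FDPS, FDFT1, SQLE and LSS, and the regulators SREBF2 and INSIG1. None of the 8 encodes an uptake receptor, so the group is described as synthesis and its control, and uptake genes are given from a separate list.

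Cholesterol is built from acetyl-CoA. The upper part of the pathway makes mevalonate and turns it into isoprenoid units, which are joined into farnesyl diphosphate, a branch point that also serves protein prenylation and other products. Squalene synthase commits farnesyl diphosphate to sterols, squalene is then oxidised and folded into lanosterol, and a longer series of enzymes trims lanosterol to cholesterol. SREBF2 encodes SREBP-2, a transcription factor held in the endoplasmic reticulum while sterols are plentiful and released by proteolysis when they run low. INSIG1 encodes one of the proteins that hold it back, and is itself a target of SREBP-2. The liver is a major site of cholesterol synthesis, and growing tissues also use sterols for new membranes.

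The libraries came from F1 fetuses of Bos taurus indicus (Nelore breed) and Bos taurus taurus (Holstein breed) at about day 105 of gestation. The labels gave 4 ART-Normal fetuses (numbers 1 to 4), which were produced in vitro by assisted reproductive technology (ART) and had a body weight like that of the controls, and 2 Control-AI fetuses (numbers 2 and 4), conceived by artificial insemination (AI). All 6 were recorded as healthy, the sex was not given, and each fetus gave 1 liver and 1 muscle library of poly(A)-selected RNA. Liver libraries held 18454088 to 43339598 counts and muscle libraries 12433300 to 23578362. Levels are given as CPM, the counts of a gene scaled to a common library size, after trimmed mean of M-values (TMM) scaling within a tissue, and they depend on gene span and transcript length, so they were compared between libraries and not between genes.

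Control-AI 2 stood apart from the other libraries in both tissues. On the first principal component, which carried 51.0% of the variance in liver and 53.6% in muscle, it lay at 46.2 and 46.0 while the other libraries lay at -2.56 or lower and -4.78 or lower. The summed level of 6 hepatocyte markers was 319785 CPM in its liver library against 22440 to 45241 CPM in the other 5, and the summed level of 8 erythroid markers was 24262 CPM against 6056 to 6721 CPM. Hepatocyte markers were also detected in its muscle library (362 CPM summed) above the other muscle libraries (4.71 to 45.8 CPM), and the 6 skeletal muscle markers, at 11000 to 16752 CPM in muscle, summed to 20.2 CPM in its liver library against 1.85 to 4.80 CPM in the other 5. The main values of the comparisons between conception groups and of the correlations are therefore also given without it. In bulk tissue, fewer cells of a type and less RNA per cell cannot be told apart.

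On the bovine assembly ARS-UCD1.2 the 8 genes lie on 8 different chromosomes. HMGCS1 spans chromosome 20 from 31431132 to 31456871 (plus strand), MVD chromosome 18 from 13893901 to 13901074 (minus strand), FDPS chromosome 3 from 15311071 to 15320374 (minus strand) and FDFT1 chromosome 8 from 7587994 to 7617580 (minus strand). SQLE spans chromosome 14 from 15144669 to 15167737 (minus strand), LSS chromosome 1 from 145889075 to 145919616 (minus strand), SREBF2 chromosome 5 from 112832407 to 112890177 (plus strand) and INSIG1 chromosome 4 from 117125759 to 117138562 (plus strand). These are whole gene spans, exons and introns together, over which the reads were counted. A row named TRH lies inside HMGCS1 on the same strand and covers 22573 bp of it, and it was listed at 0 CPM in all 12 libraries. How reads falling on both rows were assigned is not given in the sources used here, so the level of HMGCS1 may be understated. No gene on the opposite strand overlaps any of the 8.

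HMGCS1 encodes the cytosolic synthase that condenses acetyl-CoA with acetoacetyl-CoA. In liver it stood at 158, 134, 199 and 125 CPM across ART-Normal 1 to 4 and 101 CPM for Control-AI 2 and 141 CPM for Control-AI 4. In muscle it stood at 52.3, 55.3, 37.7 and 43.5 CPM across ART-Normal 1 to 4 and 67.4 CPM for Control-AI 2 and 60.4 CPM for Control-AI 4. ART-Normal 3 held the highest liver level and the lowest muscle level, and Control-AI 2 the lowest liver level and the highest muscle level, so the 2 tissues ranked these fetuses in opposite order. MVD encodes the decarboxylase that makes isopentenyl diphosphate. Its liver level was 41.3, 57.2, 75.9 and 71.1 CPM across ART-Normal 1 to 4 and 55.4 CPM for Control-AI 2 and 72.7 CPM for Control-AI 4. Its muscle level was 44.4, 56.1, 55.9 and 71.5 CPM across ART-Normal 1 to 4 and 59.4 CPM for Control-AI 2 and 50.2 CPM for Control-AI 4. ART-Normal 1 was lowest in both tissues, and the liver and muscle ranges overlapped. FDPS, the farnesyl diphosphate synthase gene, was found at 63.6, 73.9, 99.0 and 87.9 CPM across ART-Normal 1 to 4 and 72.5 CPM for Control-AI 2 and 93.4 CPM for Control-AI 4 in liver. The muscle libraries held 41.0, 37.7, 34.0 and 39.9 CPM across ART-Normal 1 to 4 and 43.1 CPM for Control-AI 2 and 35.0 CPM for Control-AI 4. Every liver library was above every muscle library, and the conception groups overlapped within each tissue.

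FDFT1 encodes squalene synthase, the first step given over to sterols. Its liver values were 189.7, 183, 194 and 196 CPM across ART-Normal 1 to 4 and 162 CPM for Control-AI 2 and 193 CPM for Control-AI 4. The muscle values were 74.3, 83.7, 68.9 and 84.2 CPM across ART-Normal 1 to 4 and 87.0 CPM for Control-AI 2 and 90.8 CPM for Control-AI 4. In liver it had the smallest spread of the 8 genes, with a coefficient of variation of 6.87% over the 6 fetuses, and Control-AI 2 was the single low library. SQLE encodes squalene epoxidase, which puts the oxygen into the molecule. It was measured at 161, 169, 198 and 168 CPM across ART-Normal 1 to 4 and 157 CPM for Control-AI 2 and 198 CPM for Control-AI 4 in liver. Muscle gave 107, 97.0, 92.6 and 93.2 CPM across ART-Normal 1 to 4 and 129 CPM for Control-AI 2 and 121 CPM for Control-AI 4. Both muscle controls were above all 4 ART-Normal libraries, whereas in liver one control was the lowest library and the other equalled the highest within rounding. LSS, the lanosterol synthase gene, stood at 120.3, 148, 167 and 179 CPM across ART-Normal 1 to 4 and 143 CPM for Control-AI 2 and 156 CPM for Control-AI 4 in liver. In muscle its values were 66.5, 58.7, 63.6 and 67.7 CPM across ART-Normal 1 to 4 and 65.6 CPM for Control-AI 2 and 53.8 CPM for Control-AI 4. The groups overlapped in both tissues, with ART-Normal 4 highest in each.

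SREBF2 had liver values of 169.9, 200.1, 216 and 240.0 CPM across ART-Normal 1 to 4 and 248 CPM for Control-AI 2 and 229.5 CPM for Control-AI 4. Muscle libraries held 221, 235, 274 and 266 CPM across ART-Normal 1 to 4 and 312 CPM for Control-AI 2 and 240.2 CPM for Control-AI 4. Unlike the enzyme genes other than MVD, it occupied overlapping ranges in liver and muscle, with ART-Normal 1 lowest and Control-AI 2 highest in both. INSIG1 was present at 78.6, 87.9, 89.7 and 97.6 CPM across ART-Normal 1 to 4 and 79.7 CPM for Control-AI 2 and 106 CPM for Control-AI 4 in liver. Its muscle level was 40.1, 40.8, 34.2 and 44.2 CPM across ART-Normal 1 to 4 and 53.8 CPM for Control-AI 2 and 47.9 CPM for Control-AI 4. Both muscle controls exceeded every ART-Normal library, and all liver libraries exceeded all muscle libraries. Over the 6 fetuses, the coefficient of variation of the 8 genes ran from 6.87 to 23.2% in liver (median 13.3%) and from 8.54 to 20.6% in muscle (median 13.6%), near the medians over all genes tested in that tissue (14.3% and 13.4%).

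**Figure D1:**
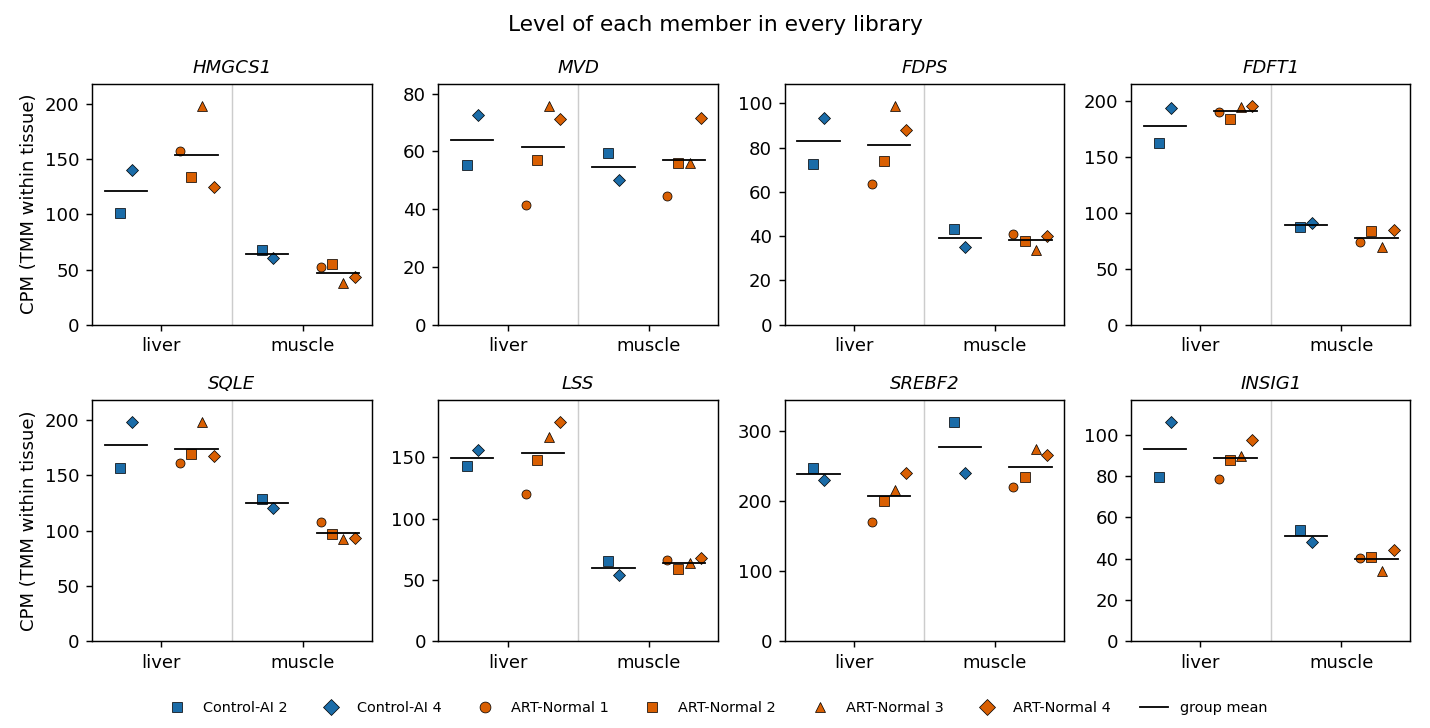
Level of each of the 8 genes in every library, in CPM after TMM scaling within the tissue (vertical axes, from 0, a separate scale per gene). Squares, diamonds, circles and triangles stand for fetus numbers, blue for Control-AI, orange for ART-Normal, and bars for group means (4 ART-Normal and 2 Control-AI libraries per tissue); liver points lie above muscle points for every gene but MVD and SREBF2, and in muscle both blue points lie above the orange ones for HMGCS1, FDFT1, SQLE and INSIG1.

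Liver was compared with muscle over the 6 fetuses to ask in which tissue the pathway genes were expressed more strongly. Of the 8 genes, 6 were higher in liver in edgeR's quasi-likelihood test (Benjamini-Hochberg adjusted p of 0.05 or lower), and none was lower. The comparison separated most of the transcriptome: 81.3% of the 12923 genes tested passed the threshold, and 40.6% of the genes tested passed it with the higher level in liver. The same 6 genes had every liver library above every muscle library, a separation that held for 31.8% of genes tested, and their liver level was higher within each of the 6 fetuses. Over the 8 genes the median log2 fold change was 1.22, against 0.01 over all genes tested.

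HMGCS1 differed most, at 3.02 times the muscle level (log2 fold change 1.59, SE 0.17, adjusted p = 9.98e-07). Its liver to muscle log2 ratio ranged from 0.71 to 2.53 between fetuses, from Control-AI 2 to ART-Normal 3. LSS was 2.69 times its muscle level in liver (1.43, SE 0.10, adjusted p = 6.11e-09), FDFT1 2.53 times (1.34, SE 0.09, adjusted p = 2.99e-09) and FDPS 2.36 times (1.24, SE 0.11, adjusted p = 1.75e-07). INSIG1 was 2.30 times its muscle level (1.20, SE 0.10, adjusted p = 6.12e-08) and SQLE 1.83 times (0.87, SE 0.09, adjusted p = 8.10e-07). SREBF2, the gene of the factor that drives the pathway, was not called: its log2 fold change was -0.10 with a 95% interval of -0.32 to 0.12 (adjusted p = 0.354), and the liver level was higher in 1 of 6 fetuses. MVD had a log2 fold change of 0.29 (95% interval -0.03 to 0.62, adjusted p = 0.0901), with the liver level higher in 6 of 6 fetuses by a log2 ratio of 0.03 to 0.67. With the fetus as a replicate block MVD passed (0.28, adjusted p = 0.0257), as it did without ART-Normal 1 (0.33, adjusted p = 0.0249). The other 6 genes were called, and SREBF2 was not, with the block and without Control-AI 2.

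The rest of the synthesis pathway followed the same pattern in part. Of 12 further enzyme genes, 9 were higher in liver and 0 lower, with a median log2 fold change of 1.61. The largest differences lay near the end of the pathway, in EBP, the sterol isomerase (2.74, adjusted p = 2.18e-11), DHCR7, which makes the last reduction on the sterol ring (2.61, adjusted p = 1.43e-08), and SC5D, the sterol desaturase (2.52, adjusted p = 6.82e-11). ACAT2, which supplies acetoacetyl-CoA, had a value of 1.85, and NSDHL 1.66, TM7SF2 1.64, CYP51A1 1.58, MSMO1 1.46 and IDI1 0.92 also passed. The 3 that did not were MVK (-0.05, 95% interval -0.34 to 0.23), PMVK (0.15, -0.12 to 0.42) and HSD17B7 (0.24, -0.03 to 0.51). MVK and PMVK encode the kinases that act on mevalonate just before MVD, so the 3 consecutive genes from mevalonate to isopentenyl diphosphate had the values nearest 0 in the upper pathway, a grouping seen after the values were known.

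**Figure D2:**
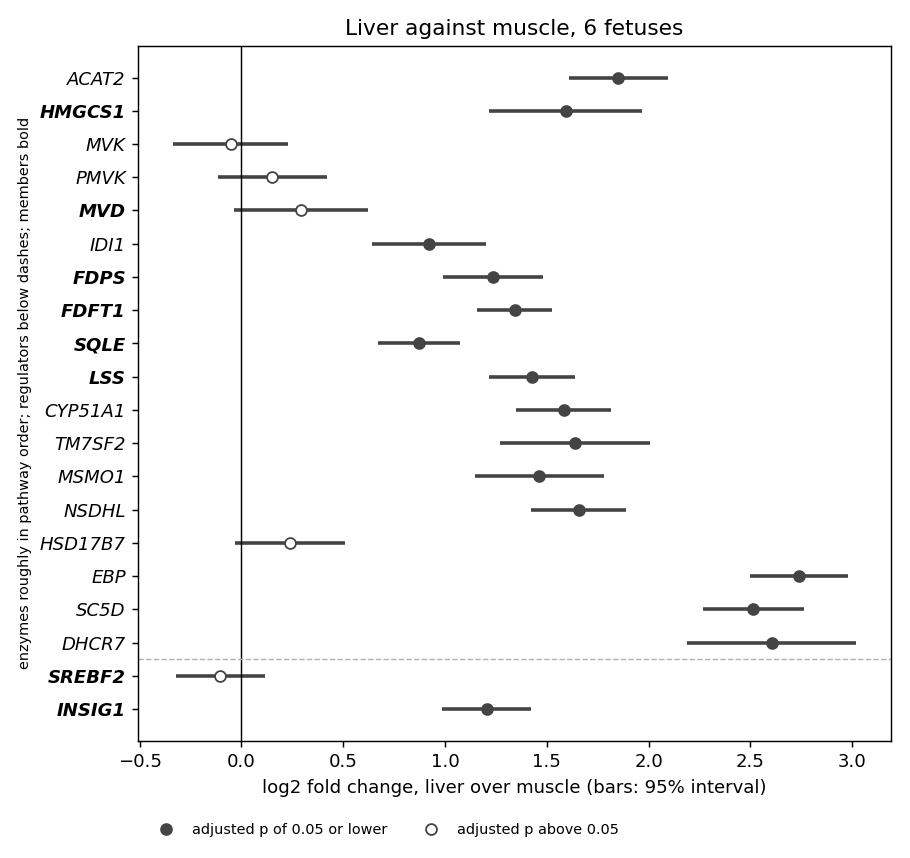
Log2 fold change of liver over muscle (horizontal axis) with 95% intervals as bars, from the fit to 12 libraries of 6 fetuses, for the 18 enzyme genes roughly in pathway order and, below the dashed line, SREBF2 and INSIG1 (the 8 genes of the group in bold). The fit did not pair the tissues of a fetus. Filled points passed the adjusted threshold. MVK, PMVK, MVD, HSD17B7 and SREBF2 are open and near 0, and the points furthest right are EBP, DHCR7 and SC5D. MVD passed when the fetus was a block.

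Genes acting around the pathway were less uniform. Among 5 other regulators, SREBF1 (1.08), which encodes the related factor of fatty acid synthesis, and SCAP (0.77), which escorts the SREBPs, were higher in liver. INSIG2 (-0.49), the second INSIG gene, and the genes of the 2 proteases that release the SREBPs, MBTPS1 (-0.23) and MBTPS2 (-1.21), were lower, so INSIG1 and INSIG2 differed in opposite directions. Of 6 uptake and transport genes tested, 5 were higher in liver and 0 lower (median 1.12): MYLIP (1.82), a ligase that degrades lipoprotein receptors, SCARB1 (1.60), the receptor for high-density lipoprotein, LIPA (1.12), NPC2 (1.11) and NPC1 (0.51). LRP1 had a value of 0.03 and was not called, and STARD4 of the same list was not analysed here. For efflux, esterification and bile acid synthesis, 4 of 6 genes were higher in liver. These were SOAT2 (8.80, with 0.06 to 0.72 CPM in muscle), ABCG1 (3.49), ABCA1 (1.67) and NR1H3 (1.65). CYP27A1, a sterol hydroxylase of bile acid synthesis, was lower in liver (-1.75), as was SOAT1 (-0.31). CYP7A1, the rate-limiting enzyme of bile acid synthesis, fell below the expression filter, with at most 0.22 CPM in any library. Of 5 fatty acid synthesis genes, SCD (1.75), ELOVL6 (0.93), FASN (0.85) and ACLY (0.40) were higher in liver and ACACA (0.17) was not called. The hepatocyte and erythroid marker sums differed between the tissues along with these genes (22440 to 319785 against 4.71 to 362 CPM, and 6056 to 24262 against 100.1 to 686 CPM), and their part in the differences was not tested.

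ART-Normal was compared with Control-AI within each tissue to ask whether the method of conception went with a different level. In muscle, no gene of the 8 passed the adjusted threshold, which 1 of 11695 genes tested passed (0.00855%). The lowest adjusted p among the 8 was 0.411, and the alternatives gave 0.161 to 1.00. At an unadjusted p under 0.05 there were 3, HMGCS1, SQLE and INSIG1, all with the lower level in ART-Normal, against 9.19% of all genes tested in either direction and 3.52% in that direction. The likelihood ratio test and DESeq2 also gave 0 adjusted and 3 unadjusted. The count at an unadjusted p under 0.05 fell to 0 with the replicate number as a block and without Control-AI 2, to 1 without ART-Normal 3, and to 2 without ART-Normal 1, 2 or 4, with 0 adjusted in each.

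The mean level of HMGCS1 in muscle was 47.2 ± 8.07 CPM in ART-Normal (SD, n = 4) and 63.9 ± 4.92 CPM in Control-AI (SD, n = 2). The edgeR log2 fold change was -0.44 (SE 0.17, 95% interval -0.81 to -0.06, unadjusted p = 0.0269, adjusted p = 0.477). SQLE stood at 97.5 ± 6.85 against 125 ± 5.87 CPM, with an edgeR log2 fold change of -0.35 (SE 0.12, 95% interval -0.62 to -0.09, unadjusted p = 0.0145, adjusted p = 0.411). INSIG1 stood at 39.8 ± 4.17 against 50.9 ± 4.13 CPM, with an edgeR log2 fold change of -0.35 (SE 0.15, 95% interval -0.68 to -0.02, unadjusted p = 0.0391, adjusted p = 0.51). These 3 genes and FDFT1 (-0.19, adjusted p = 0.716) were the members in which all 4 ART-Normal muscle libraries lay below both controls (7.22% of all genes tested). The edgeR values of the other 4 were -0.15 for SREBF2 (95% interval -0.50 to 0.19), -0.03 for FDPS (-0.37 to 0.31), 0.06 for MVD (-0.35 to 0.47) and 0.10 for LSS (-0.20 to 0.41), and their groups overlapped.

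The same ordering of libraries occurred in 5 of the 12 further enzyme genes, IDI1, CYP51A1, MSMO1, NSDHL and SC5D. Together 9 of 20 genes (45.0%) had all ART-Normal muscle libraries below both controls. The lower position was not spread over the whole pathway: MVK (0.10) and ACAT2 (0.11) had the highest log2 fold changes of the enzyme list, and IDI1 (-0.36, adjusted p = 0.502) and MSMO1 (-0.36, adjusted p = 0.457) the lowest. Control-AI 2 was the highest library for 10 of the 20 genes. Without it, 1 control remained and was assumed to vary like the other libraries. HMGCS1 then had a log2 fold change of -0.37 (unadjusted p = 0.0910), SQLE of -0.32 (unadjusted p = 0.0724), INSIG1 of -0.28 (unadjusted p = 0.142) and FDFT1 of -0.24 (unadjusted p = 0.189), each by edgeR across all genes, so no member kept an unadjusted p under 0.05. All 4 ART-Normal libraries remained below Control-AI 4 for the same 4 members and for 10 of the 20 genes, against 18.7% of genes tested. The summed level of 4 connective tissue markers was also lower in ART-Normal muscle (16451 to 18614 CPM) than in the controls (21027 to 21117 CPM), whereas the sums of 6 skeletal muscle markers overlapped (11000 to 16629 against 14539 to 16752 CPM). The part of either in the result was not tested.

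In liver, no gene of the 8 was called, and neither was any of the 11304 genes tested (0%), of which 948 had an unadjusted p under 0.05 (8.39%). None of the 8 was among these, with either edgeR test or DESeq2. HMGCS1 had the largest log2 fold change, 0.35 (95% interval -0.12 to 0.82, adjusted p = 0.606), on means of 154 ± 33.0 CPM (SD, n = 4) in ART-Normal and 121 ± 28.1 CPM (SD, n = 2) in Control-AI. SREBF2 had -0.21 (95% interval -0.56 to 0.14, adjusted p = 0.654), and the remaining 6 lay between -0.07 for INSIG1 and 0.10 for FDFT1. No member, and none of the 12 further enzyme genes, had groups that did not overlap, a state found in 18.4% of genes tested. All 12 of those enzyme genes had a log2 fold change above 0, as had 51.2% of all genes tested. Without Control-AI 2 the count was 7 of 12 (51.5% of all genes tested). Control-AI 2 was the lowest liver library for 9 of these 20 genes, and so was ART-Normal 1 for 9 others. Without Control-AI 2 the value of HMGCS1 was 0.14, without Control-AI 4 it was 0.61 (edgeR adjusted p = 0.228, unadjusted p = 0.0361), and without Control-AI 2 FDFT1 changed sign to -0.01. In liver the summed hepatocyte markers (22440 to 37306 against 45241 to 319785 CPM) and erythroid markers (6056 to 6662 against 6721 to 24262 CPM) were higher in the controls without overlap, and their part in these values was not tested.

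**Figure D3:**
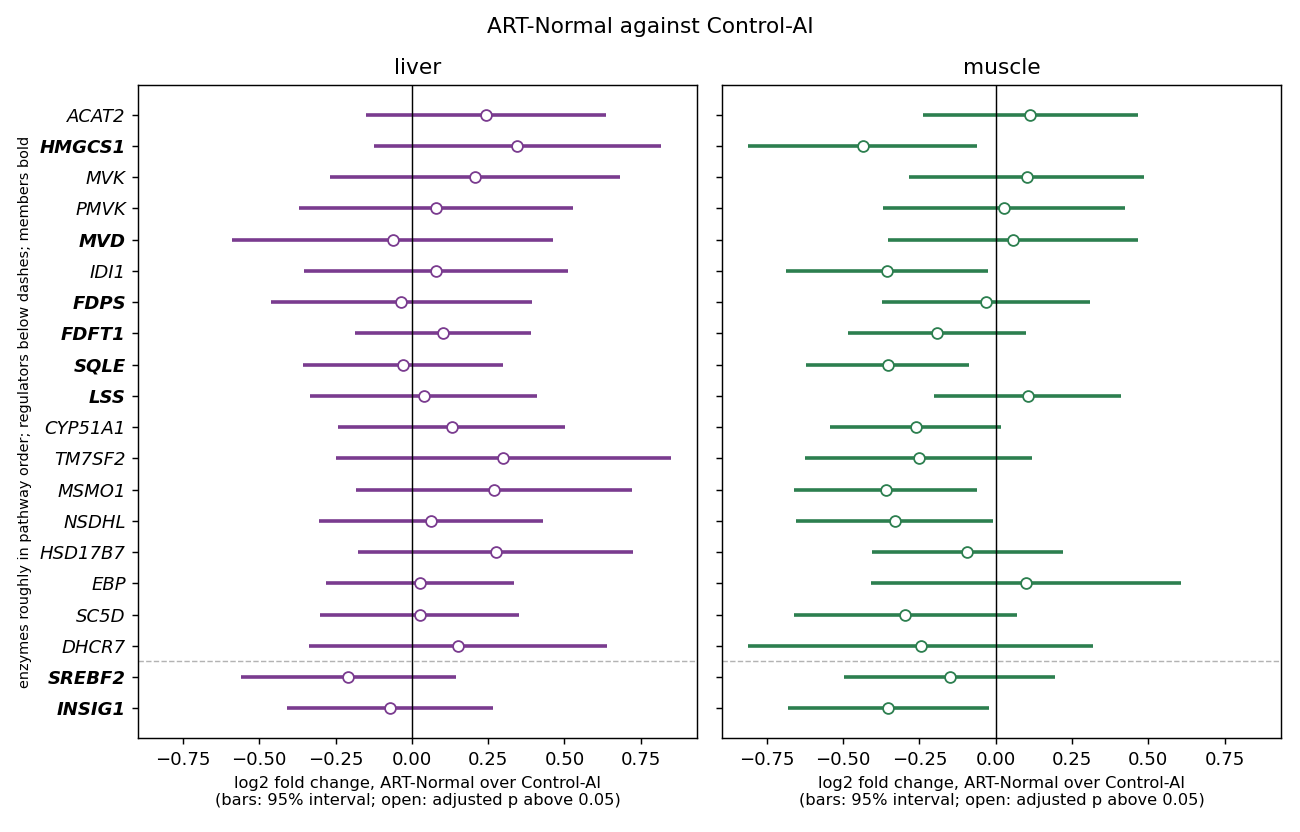
ART-Normal level over Control-AI level as log2 fold change (horizontal axes) with 95% intervals as bars, in liver (left) and muscle (right), 4 against 2 fetuses, for the 18 enzyme genes roughly in pathway order and for SREBF2 and INSIG1 (the 8 genes of the group in bold). All points are open because none passed the adjusted threshold; in muscle the intervals of HMGCS1, SQLE and INSIG1 lie below 0, and in liver every interval crosses 0.

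Of the surrounding genes, none passed the adjusted threshold in either tissue, and the values here are edgeR log2 fold changes of the genes at the ends of each list. In liver the highest of the 12 further enzyme genes were TM7SF2 0.30 and HSD17B7 0.27. Among the other regulators, liver gave SREBF1 -0.41, SCAP -0.30, INSIG2 0.00 and MBTPS2 0.13, and muscle SREBF1 -0.18, MBTPS1 -0.09, SCAP 0.03 and MBTPS2 0.15. SREBF1 was thus the lowest of its list in each tissue, within the spread between fetuses. For uptake and transport, liver gave LRP1 -0.26, SCARB1 -0.08, NPC2 0.18 and NPC1 0.30, and muscle LIPA -0.28, NPC2 -0.20 and MYLIP 0.14. For efflux and bile acid synthesis, liver gave NR1H3 -0.42, ABCG1 -0.12, ABCA1 0.07 and CYP27A1 0.34, and muscle NR1H3 -0.25, SOAT1 -0.06, CYP27A1 0.08 and ABCA1 0.13. NR1H3 encodes LXR-alpha, a sterol-sensing nuclear receptor, and had the lowest value of its list in each tissue without passing the adjusted threshold. In liver its unadjusted p was under 0.05 by edgeR, as for 8.39% of genes tested. The fatty acid synthesis genes gave FASN -0.21, ACACA -0.03, SCD 0.18 and ELOVL6 0.23 in liver and SCD -0.16, FASN -0.14, ELOVL6 0.01 and ACACA 0.22 in muscle. In liver the groups did not overlap for NR1H3 (ART-Normal lower) and for SCD and ELOVL6 (ART-Normal higher), as for 18.4% of genes tested. In muscle LIPA was lower in ART-Normal without overlap, as were 7.22% of genes tested, and MYLIP was higher without overlap.

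Whether the conception groups differed to another degree in liver than in muscle was tested with an interaction term. No gene of the 8 was called, nor was any of 12923 genes tested (0%), of which 711 had an unadjusted p under 0.05 (5.5%). HMGCS1 was the only member with an unadjusted p under 0.05, with an interaction of 0.80 on the log2 scale (SE 0.30, 95% interval 0.15 to 1.44, unadjusted p = 0.0191, adjusted p = 0.804), positive because ART-Normal was higher in liver and lower in muscle. Leaving out Control-AI 2 gave 0.52, and leaving out Control-AI 4 gave 1.13. SQLE (0.34, 95% interval -0.06 to 0.73) and FDFT1 (0.31, -0.05 to 0.67) came next.

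Most pairs of the 8 genes varied together between livers, and fewer did between muscles. These are correlations of log2 CPM over the 6 fetuses of a tissue, whose libraries differ in depth and include Control-AI 2, and they are given as a description. In liver the median Pearson r over the 28 pairs was 0.60, with 26 pairs above 0, while the median over all pairs of genes was near 0 (-0.0003). MVD, FDPS and LSS formed the tightest set, with r of 0.97 for MVD and FDPS, 0.94 for MVD and LSS and 0.86 for FDPS and LSS. HMGCS1 had the lowest r there to the mean of the other 7 (0.21), whereas FDPS had 0.98. By pair, HMGCS1 had r of -0.51 to SREBF2 but of 0.71 to FDFT1 and 0.66 to SQLE. In muscle the median was 0.31 with 22 pairs above 0, and the closest pair was HMGCS1 and SQLE (r of 0.88), followed by FDFT1 and INSIG1 (0.87). INSIG1 had 0.93 to the mean of the other 7 and LSS -0.03. SREBF2 itself had r of 0.34 in liver and 0.43 in muscle to the mean of the other 7. Without Control-AI 2 the median was 0.59 in liver and 0.08 in muscle. Over these 5 fetuses the 3 liver pairs of MVD, FDPS and LSS kept r of 0.86 to 0.98, and HMGCS1 had 0.02 to the mean of the other 7 and -0.27 to SREBF2. SREBF2 was the gene whose values moved most, to 0.83 in liver and -0.39 in muscle, so its muscle r above 0 rested on Control-AI 2. In muscle FDFT1 and INSIG1 then had 0.94, HMGCS1 and SQLE 0.80, and to the mean of the other 7 INSIG1 had 0.91 and LSS -0.44.

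Between the tissues of the same fetus, r over 6 fetuses was 0.79 for SREBF2 and 0.55 for MVD, between -0.34 and 0.05 for FDFT1, SQLE, LSS and INSIG1, and -0.73 and -0.78 for HMGCS1 and FDPS. Control-AI 2 was at an extreme of HMGCS1, SQLE and SREBF2 in both tissues. Without it, r over 5 fetuses was -0.55 for HMGCS1, -0.79 for FDPS, 0.75 for SREBF2, 0.62 for MVD and 0.62 for INSIG1. It was -0.11 for FDFT1 and -0.03 for LSS, and for SQLE it turned from -0.21 over 6 fetuses to 0.24. The sign thus differed between genes with and without that fetus. ART-Normal 3 had the highest liver level in 4 of the 8 genes and the lowest muscle level in 5. The summed level of the 8 genes ran from 982 CPM (ART-Normal 1) to 1239 CPM (ART-Normal 3) in liver and from 647 CPM (ART-Normal 1) to 818 CPM (Control-AI 2) in muscle.

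**Figure D4:**
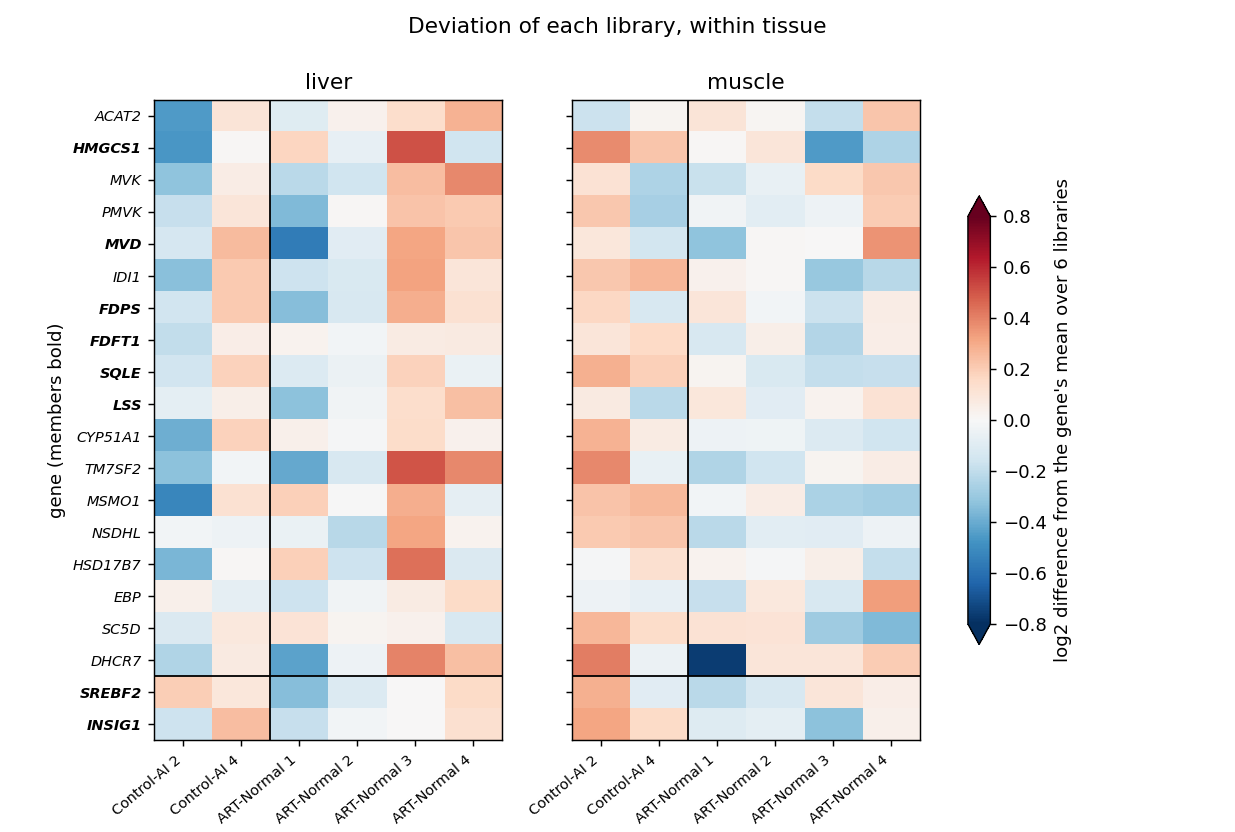
Deviation of each library from the gene's mean over the 6 libraries of the tissue, in log2 CPM (red above, blue below), for the 18 enzyme genes roughly in pathway order and for SREBF2 and INSIG1 below the horizontal line (the 8 genes of the group in bold); the vertical line divides Control-AI from ART-Normal. In liver the ART-Normal 1 column is mainly blue and the ART-Normal 3 column mainly red, and in muscle the Control-AI 2 column is mainly red.

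Genes outside the group were ranked by their likeness to it, as Pearson r to the mean profile of the 8 over the 12 libraries after centring within tissue, among 10076 genes that passed the filter in both tissues. The 5 most alike were HIRIP3 (0.93), YPEL3 (0.91), MLF2 (0.91), ATRAID (0.91) and C25H16orf91 (0.89). The 12 further enzyme genes had a median r of 0.62, against -0.0003 over all 10076 genes, and were led by TM7SF2 (0.84) and IDI1 (0.81). The 5 fatty acid synthesis genes had a median of 0.45 and the 6 uptake and transport genes of 0.12. At the other end of the lists lay MYLIP (-0.68), which acts against lipoprotein receptors, and ABCA1 (-0.58), the cholesterol exporter. The ranking depended on Control-AI 2. Over the 10 libraries without it the highest were RPL34 (0.96), MRPL43 (0.95), FBXL15 (0.95), TRIR (0.94) and PRMT5 (0.94), while HIRIP3 (0.91) ranked 20 among genes outside the group and C25H16orf91 (0.84) ranked 90. The median of the 12 further enzyme genes was then 0.56. That of the fatty acid synthesis genes was 0.17 and that of the uptake and transport genes -0.02. The lowest of the listed genes was then SOAT1 (-0.82), followed by MYLIP (-0.71), ELOVL6 (-0.54), MBTPS2 (-0.48) and ABCA1 (-0.47).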

How the data were processed

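The deposited tables hold read counts per gene, not normalized, for liver and for muscle. Per the labels, RNA was poly(A)-selected, strand-specific libraries were sequenced as 150 bp paired ends, and RNA integrity numbers were 7.5 to 9.1. The submitters' processing notes name FastQC 0.11.7, HISAT2 2.1.0, Cufflinks, SAMtools, featureCounts, edgeR 3.24.3 and the assembly ARS-UCD1.2, and the strand setting of the counting is not given in the sources used here. Each of the 21048 rows has the length of its whole gene span, and 9 gene IDs occur on 2 lines. Tables of the authors' own edgeR comparisons (fold change, level, test statistic, p-value and false discovery rate) were not used, nor were 14 count columns of other samples.

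Counts were analysed in R 4.3.3 with edgeR 4.0.16 (TMM, quasi-likelihood test, a filter of 5 CPM or more throughout a group, Benjamini-Hochberg over all genes tested, threshold 0.05), which was tested on simulated data. Log2 fold changes with a 95% interval come from that fit. Log2 CPM used a prior count of 1, and liver to muscle ratios TMM over 12 libraries and an offset of 0.5 CPM. Each tissue was fitted alone for ART-Normal against Control-AI, and both together, with conception group as covariate, for liver against muscle and the interaction. Main fits held all 4 ART-Normal fetuses of the labels; the study's methods do not list ART-Normal 4, whose omission was an alternative. Each replicate was a separate fetus. Liver and muscle were paired by animal. The r of the deviations from the group mean in the 2 tissues was 0.44, 0.084, 0.091 and 0.56 for ART-Normal 1 to 4. For the controls it was 0.69, the same for both by construction, because deviations from a mean of 2 mirror each other. The fetus as a block was an alternative, as were DESeq2 1.42.0 and the settings in the closing part. Checks without Control-AI 2 (library order, correlations and likeness) were chosen after seeing the data.

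The 8 genes and the gene and marker lists were chosen with earlier results of these data known, and some listed genes are not reported here. All 8 passed the filter in both tissues. Of the listed genes, those past the threshold and the 2 highest and 2 lowest log2 fold changes per list were named, together with the 5 genes most alike. The marker lists were hepatocyte, skeletal muscle, erythroid, connective tissue, adipose tissue and macrophage. Adipose markers summed to 10.5 to 18.5 CPM in liver and 3.08 to 7.52 CPM in muscle, and macrophage markers to 309.8 to 447 CPM in liver and 49.1 to 72.5 CPM in muscle. Figures were drawn with Matplotlib 3.10.9.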

Additional observations from a re-analysis of the deposited data

How the results depend on the processing

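The 6 genes higher in liver than in muscle were called under each of the 14 alternatives tried (RLE, upper quartile or no normalization factor beside library size, likelihood ratio test, DESeq2, 2 other filters, fetus as a block and each fetus left out), which gave 6 or 7 members called, and no member was called for ART-Normal against Control-AI under any of the corresponding 14. The interaction was run under 10 alternatives (RLE, library size alone, likelihood ratio test, fetus as a block and each fetus left out), and no member was called under any of these. ACLY, liver against muscle, fell to 0.26 (edgeR adjusted p = 0.0531) on library size alone, which moved the median of all genes by more than 0.1 on the log2 scale, to -0.13 for liver against muscle and 0.21 for ART-Normal against Control-AI in liver. The counts of called genes depended on the tool. In liver the likelihood ratio test called 89, DESeq2 56 and library size alone 6 (against 0). In muscle the likelihood ratio test called 120 and DESeq2 106 (against 1), and for the interaction the likelihood ratio test called 98 (against 0). Leaving out 1 fetus gave 0 to 830 called genes in liver, 0 to 1327 in muscle, 10177 to 10758 for liver against muscle and 0 to 232 for the interaction, with 830, 1327 and 232 reached without Control-AI 4, when Control-AI 2 was the remaining control. The cause of the other differences was not tested.

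ART-Normal and Control-AI share the numbers 2 and 4, but these are different animals, and their deviations did not run together (r of 0.02 and -0.13 in liver, -0.03 and -0.18 in muscle), so they share only a number. The replicate block on that number called 6 genes in liver and 90 in muscle, with 0 members in each, and in liver it gave values of the other sign for MVD (0.00683), INSIG1 (0.0109), INSIG2 (-0.20), SCARB1 (0.0790), ABCG1 (0.0317) and ACACA (0.13), and in muscle for ELOVL6 (-0.0341). The fetus as a replicate block turned the interaction of FDPS to -0.00556, called MVD for liver against muscle, and changed no other call among the members.

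Other values, some as far from 0 as LRP1 (-0.26) and SREBF2 (-0.21) in liver, also turned sign, in comparisons in which none was called. In liver these were INSIG2 with RLE (-0.00143), upper quartile (-0.0391) and DESeq2 (-0.00235), LSS with upper quartile (-0.000349), and, on library size alone, MVD (0.12), FDPS (0.14), SQLE (0.15), SREBF2 (0.00521), INSIG1 (0.11), SCARB1 (0.16), ABCG1 (0.10), ACACA (0.17) and FASN (0.00694). In muscle they were SCAP (-0.00135) and ELOVL6 (-0.0222) with upper quartile and ELOVL6 on library size alone (-0.00949). Library size alone turned the interactions of MVD (0.0778), LSS (0.15) and SREBF2 (0.18). Leaving out each fetus in turn gave, in liver, MVD -0.24 to 0.15, FDPS -0.20 to 0.16, FDFT1 -0.0106 to 0.24, SQLE -0.18 to 0.15, LSS -0.0435 to 0.14, INSIG1 -0.25 to 0.15, INSIG2 -0.0856 to 0.11, SCARB1 -0.30 to 0.19, LRP1 -0.50 to 0.0441, NPC2 -0.00429 to 0.41, ABCG1 -0.25 to 0.0302 and ACACA -0.0943 to 0.0541. In muscle it gave MVD -0.0710 to 0.17, FDPS -0.16 to 0.11, LSS -0.0155 to 0.24, SREBF2 -0.31 to 0.0330, MVK -0.0576 to 0.28, SREBF1 -0.42 to 0.11, SCAP -0.14 to 0.22, MBTPS2 -0.00715 to 0.34, ABCA1 -0.0495 to 0.34, SOAT1 -0.15 to 0.0390, CYP27A1 -0.0686 to 0.24, FASN -0.43 to 0.23 and ELOVL6 -0.0167 to 0.0357. For liver against muscle it gave MVK -0.10 to 0.0188 and MVD 0.21 to 0.34, and for the interaction MVD -0.38 to 0.22, FDPS -0.29 to 0.35, LSS -0.23 to 0.15 and SREBF2 -0.16 to 0.0760. With 2 control fetuses, changes of the size of the intervals given above could not be told from the spread between fetuses.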
